A study of Mus musculus with 105 samples.

Results

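MicroRNAs (miRNAs) made within the last hours were compared with the standing miRNA pool in mouse embryonic stem cells. The comparison rests on 12 libraries, which are all small RNA libraries of this line at 2, 4 and 8 h of labelling, out of 26 small RNA libraries of the line and 105 samples in the series. Of these, 6 are EU libraries, made from RNA that was pulled down because it carried 5-ethynyluridine (5EU), a uridine analogue that cells build into new RNA. The 6 input libraries hold the small RNA of the same cells without pulldown. Each EU library was paired with the input library of the same time course and time, and each miRNA was measured as its share of all miRNA counts of a library, in CPM (counts out of every 1e+06 miRNA counts). All 1013 mouse miRNA rows were taken. Of these, 825 had at least 1 count in the 12 libraries, 188 had none, and 448 passed the expression filter and were tested.

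All 12 libraries come from the line v6.5, labelled as strain C57BL/6 and used at passages 5-15. The cells grew in serum-free medium with LIF and the inhibitors PD0325901 and CHIR99021, and 5EU was present at 125 µM for the labelled time. The EU group has 1 library per course at each of 2, 4 and 8 h, and so has the input group. Both groups received the same label, so the input libraries are not untreated cells. The series follows how fast miRNAs are made and lost in several mouse lines, and only these stem cell libraries are described here. The 3 times of a course stand in for replicates, and nothing in the labels says how separate the cultures of a course were. P-values therefore rest on how the EU-to-input ratio varied over 6 pairs from 2 courses, part of which may be technical. Where the times are pooled, this variation includes any change with labelling time. It does not measure the spread between cultures known to be independent.

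A miRNA precursor is a hairpin, and Dicer cuts it into a short duplex of a 5p and a 3p arm. The guide strand is usually kept by an Argonaute protein, where it is stable, while the passenger strand is usually discarded and degraded. Shortly after a label is added, labelled miRNAs are the recently made ones, and with time they approach the composition of the whole pool. In mouse embryonic stem cells the miR-290-295 cluster is the dominant miRNA source, and its members support the fast cell cycle and the self-renewal of these cells.

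The mature sequences that the comparison turned on are from RefSeq on the build GRCm38.p6, with bases 2 to 8, the seed that pairs with targets, in capitals. The first set holds 3 hairpins whose arms had log2 differences of opposite sign, although miR-130b-5p did not pass the test. Their 3p arms share the seed AGUGCAA.
miR-130a-5p: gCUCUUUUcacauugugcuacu, chr2:84741155-84741176, minus strand
miR-130a-3p: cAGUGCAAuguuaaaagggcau, chr2:84741116-84741137, minus strand
miR-130b-5p: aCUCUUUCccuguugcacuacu, chr16:17124109-17124130, minus strand
miR-130b-3p: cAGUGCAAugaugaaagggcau, chr16:17124071-17124092, minus strand
miR-301a-5p: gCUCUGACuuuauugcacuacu, chr11:87113017-87113038, plus strand
miR-301a-3p: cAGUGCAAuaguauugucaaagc, chr11:87113054-87113076, plus strand

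The most abundant miRNAs of the line share another seed, AAGUGCU.
miR-294-3p: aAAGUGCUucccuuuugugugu, chr7:3220691-3220712, plus strand
miR-291a-3p: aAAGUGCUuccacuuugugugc, chr7:3218968-3218989, plus strand
miR-295-3p: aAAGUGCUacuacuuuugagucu, chr7:3220815-3220837, plus strand

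The next 4 are the arms of the hairpins in which the less abundant arm was lowest in EU libraries relative to its partner.
miR-335-5p: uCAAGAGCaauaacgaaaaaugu, chr6:30741314-30741336, plus strand
miR-335-3p: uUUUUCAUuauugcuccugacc, chr6:30741354-30741375, plus strand
miR-291b-5p: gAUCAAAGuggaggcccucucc, chr7:3219494-3219515, plus strand
miR-291b-3p: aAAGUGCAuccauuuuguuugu, chr7:3219529-3219550, plus strand

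Further arms lay far above the input level or moved most with labelling time.
miR-495-5p: gAAGUUGCccauguuauuuuucg, chr12:109718757-109718779, plus strand
miR-19b-1-5p: aGUUUUGCagguuugcauccagc, chr14:115044320-115044342, plus strand
miR-92a-1-5p: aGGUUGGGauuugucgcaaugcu, chr14:115044437-115044459, plus strand
miR-25-5p: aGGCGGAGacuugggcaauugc, chr5:138165370-138165391, minus strand
miR-290a-3p: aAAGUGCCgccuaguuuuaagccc, chr7:3218674-3218697, plus strand
miR-186-3p: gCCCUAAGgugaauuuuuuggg, chr3:157544324-157544345, plus strand
miR-34a-5p: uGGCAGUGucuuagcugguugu, chr4:150068473-150068494, plus strand

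The last 4 lay far below the input level.
miR-494-3p: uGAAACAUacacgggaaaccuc, chr12:109715367-109715388, plus strand
miR-667-3p: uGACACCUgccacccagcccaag, chr12:109720061-109720083, plus strand
miR-466i-3p: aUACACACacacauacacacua, chr13:17747552-17747573, plus strand
miR-296-5p: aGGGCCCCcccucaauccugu, chr2:174267093-174267113, minus strand

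EU libraries were shallow, with 11392 to 30815 miRNA counts in course 1 and 29811 to 105158 in course 2, against 1778102 to 3283709 in the input libraries. The precision of every ratio is therefore set by the EU counts, and 242 of the 448 tested miRNAs had fewer than 10 EU counts per library on average. The only EU library without label (0 h, course 1) held 1196 counts. Scaled by the 2 miRNA standards added to each library, this background came to 2.60 to 7.83% of EU counts in course 1 and 0.499 to 1.36% in course 2. By its most abundant cluster the stem cell label held: miR-290-295 took 560744 to 608957 CPM of EU libraries and 534910 to 567335 CPM of input libraries. Markers of other cells were present too. Hematopoietic markers summed to 19269 to 28880 CPM in EU and 11280 to 17637 CPM in input libraries, and neural markers to 1298 to 4554 and 4174 to 5936 CPM. The sums were 805 to 1038 and 1025 to 1283 CPM for fibroblast or mesenchymal markers, and 263 to 609 and 565 to 737 CPM for endothelial or liver markers. Of the 12 muscle markers, 10 had no count in any EU library, but their summed share reached 18852 CPM in the 2 h EU library of course 2 and 859 CPM in the 8 h input library of course 2. It was 0 in the 3 EU libraries of course 1.

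EU and input shares differed for much of the miRNA repertoire. Of 448 miRNAs, 226 (50.4%) passed the edgeR test at an adjusted p under 0.05, with 89 (19.9%) higher and the others (30.6% of those tested) lower in EU libraries. In all 6 pairs alike, 71 of the higher and 98 of the lower miRNAs kept their sign. All 6 EU shares lay above all 6 input shares for 38 miRNAs (8.48%) and below them for 86 (19.2%). The median log2 difference of the 448 miRNAs was -0.20, and scaling the libraries with TMM or DESeq2 factors moved it to -0.09 or -0.06, so values close to 0 have no firm sign. The filter also acted on EU shares: 22 tested miRNAs needed EU libraries to pass it, and of these 7 were higher and 0 lower. Among the 216 miRNAs with at least 200 CPM in 7 other input libraries of the line (0, 1, 16 and 24 h), a choice that used no library of the comparison, 38 were higher, 104 lower and the median was -0.35.

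**Figure D1:**
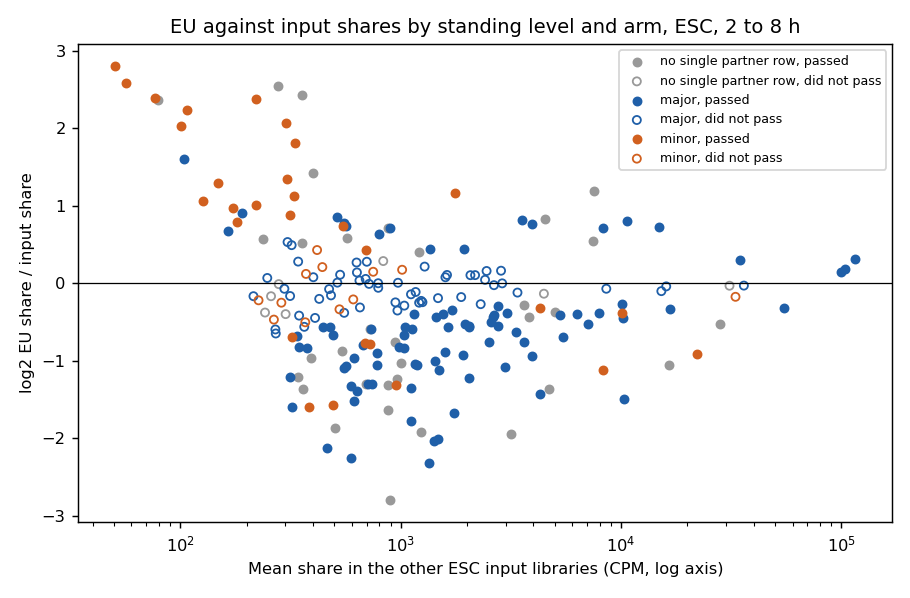
Log2 of EU share over input share, fitted over 6 pairs (vertical axis), against the mean CPM in 7 other input libraries (horizontal log axis), for 225 miRNAs with a mean of at least 200 CPM over the 12 libraries. Filled points passed the edgeR test and colours mark the arm. The 13 points left of 200 CPM reached that mean through their EU shares, and all 13 were higher.

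The arms highest in EU libraries were mostly passenger strands of abundant hairpins. By size of difference, among miRNAs with the same sign in 6 pairs and a mean of at least 200 CPM, the 10 highest were miR-495-5p, miR-301a-5p, miR-19b-1-5p, miR-92a-1-5p, miR-25-5p, miR-130a-5p, miR-16-1-3p, miR-302a-5p, miR-290a-3p and miR-186-3p. Of these, 6 had under 200 CPM in the 7 other input libraries and so entered through their EU shares. MiR-19b-1-5p, the passenger of the miR-17-92 member miR-19b, held 637, 1480 and 3120 CPM (lowest, median, highest) in EU libraries and 213, 266 and 287 CPM in input libraries. The groups did not overlap, and the log2 difference was 2.55 ± 0.22 (adjusted p = 7.36e-12 in edgeR's quasi-likelihood test). Here and below, the ± after an edgeR difference is the SE implied by the test's F statistic. It is not the spread of the 6 pairs, whose log2 ratios for miR-19b-1-5p ran from 1.45 to 3.60.

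MiR-92a-1-5p, from the same transcript as miR-19b-1-5p, held 789, 2046 and 3455 CPM in EU libraries and 263, 345 and 421 CPM in input libraries. These groups did not overlap either, at a log2 difference of 2.43 ± 0.19 (adjusted p = 1.33e-12, edgeR). MiR-130a-5p was at 609, 1235 and 1580 CPM in EU libraries against 194.7, 212 and 258 CPM in input libraries, again without overlap, at 2.38 ± 0.20 (adjusted p = 7.36e-12, edgeR). MiR-290a-3p, the rare arm of the first hairpin of the miR-290-295 cluster, was at 475, 1091 and 3160 CPM in EU libraries and 247, 272 and 380 CPM in input libraries.

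Every EU value of miR-290a-3p lay above every input value, at 2.07 ± 0.23 (adjusted p = 2.84e-09, edgeR). The largest difference was that of miR-495-5p, 2.81 ± 0.33, which rests on 6 to 21 counts per EU library. Its EU shares ran from 181 to 704 CPM with a median of 337 CPM, all above its input shares of 39.8 to 63.0 CPM. MiR-186-3p had the widest spread, from 97.4 to 973 CPM in EU libraries, and was the only member of these 10 whose groups overlapped (input 90.0 to 105 CPM).

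The 10 lowest were miR-140-3p.1, miR-130b-3p, miR-466i-3p, miR-667-3p, miR-494-3p, miR-376a-3p, miR-669ao-3p, miR-142a-5p, miR-140-3p.2 and miR-296-5p. In each of them, all 6 EU shares lay below all 6 input shares. MiR-130b-3p, a guide strand of the miR-130 family, was at 176, 296 and 320 CPM in EU libraries and at 1192, 1386 and 1674 CPM in input libraries, a log2 difference of -2.32 ± 0.18 (adjusted p = 1.93e-12, edgeR). MiR-494-3p, from the imprinted Dlk1-Dio3 locus, was at 291, 358 and 389 CPM against 1299, 1476 and 1597 CPM, a difference of -2.04 ± 0.18 (adjusted p = 1.11e-11, edgeR).

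MiR-494-3p spread little between libraries, although single EU libraries held only 4 to 34 of its counts. MiR-669ao-3p, of the repeated miRNAs of the Sfmbt2 intron, was the most abundant of the 10, with 604, 887 and 1053 CPM in EU libraries and 2627, 3199 and 3560 CPM in input libraries (-1.95 ± 0.15, adjusted p = 5.02e-13, edgeR). MiR-140-3p.1 had the largest difference, -2.80 ± 0.26, from 0 to 21 counts per EU library and input shares of 819 to 996 CPM. MiR-296-5p was low in both courses but to unequal extents, at -2.88 in course 1 and -1.27 in course 2, and its ratio differed between the courses (adjusted p = 0.00657, edgeR).

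**Figure D2:**
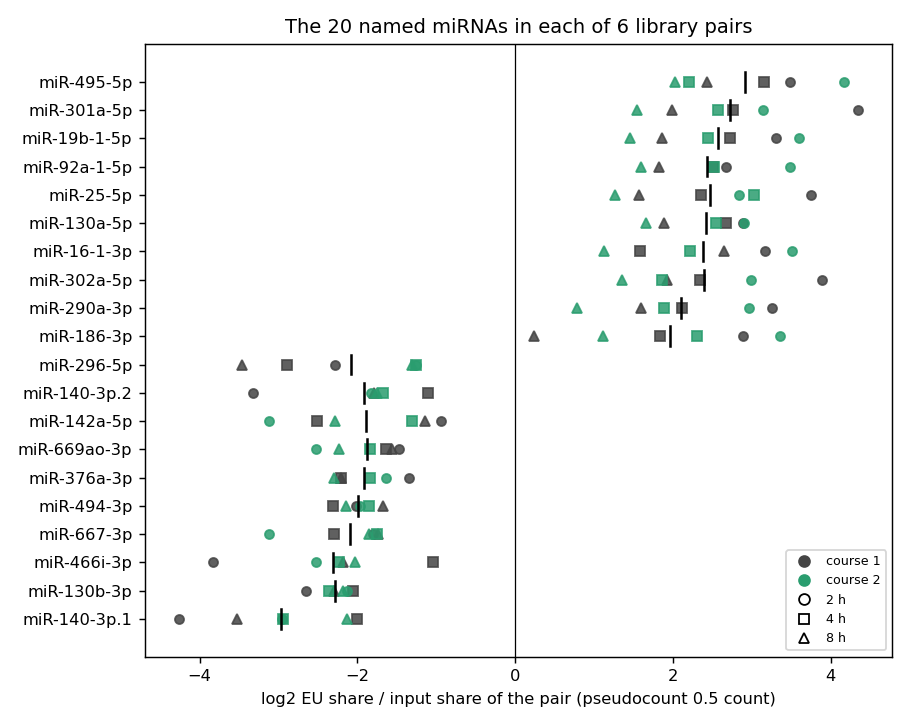
Log2 of EU share over input share in each library pair (horizontal axis, pseudocount 0.5 count) for the 10 highest and 10 lowest miRNAs. Colour marks the course, shape the labelling time, and a bar the mean of 6 pairs. For most of the 10 highest, such as miR-19b-1-5p (3.31 and 3.60 at 2 h, 1.86 and 1.45 at 8 h), the ratio was lower at 8 h, while miR-130b-3p ran between -2.65 and -2.06 with no such order.

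The same contrast was seen at times outside the comparison. At 1 h of labelling, 30 and 31 of the 38 higher miRNAs (at least 200 CPM in the 7 other input libraries) lay above their paired input in courses 1 and 2, and 94 and 99 of the 104 lower ones lay below it. At 24 h the counts were 36 and 35 of 38, and 103 and 97 of 104. The median log2 ratio of the lower miRNAs was -0.98 and -1.17 at 1 h and -0.77 and -0.61 at 24 h. The median of the higher ones was 0.67 and 0.58 at 1 h and 0.53 and 0.38 at 24 h. Over all 216 miRNAs the median was itself below 0, at -0.47 and -0.70 at 1 h and -0.33 and -0.22 at 24 h. The input libraries at these times also served for the choice of the 216 miRNAs.

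Differences were small for the most abundant miRNAs. MiR-294-3p, the most abundant, held 128380, 143780 and 162420 CPM in EU libraries and 108490, 116530 and 132780 CPM in input libraries. The groups overlapped, yet EU exceeded input in 6 of 6 pairs, at a log2 difference of 0.31 ± 0.06 (adjusted p = 3.00e-05, edgeR). Without course 2, miR-294-3p did not pass. MiR-291a-3p (0.19 ± 0.07, adjusted p = 0.0185) and miR-295-3p (0.15 ± 0.06, adjusted p = 0.0361) were higher by less. Neither of them passed without course 2 (0.09 and 0.16, adjusted p = 0.657 and 0.404, edgeR), without the 4 h pairs (0.356 and 0.256), with counts summed per course (0.0510 and 0.160) or without the pairing (0.0881 and 0.103). With miR-294-3p they share the seed AAGUGCU with miR-302b-3p and miR-302d-3p, which did not pass (0.16 and 0.11). These 5, counted among miRNAs with a single RefSeq mature sequence and a mean of at least 200 CPM, lay between 0.11 and 0.31. MiR-293-3p, whose seed is GUGCCGC, was lower in 6 of 6 pairs (-0.32 ± 0.07, adjusted p = 0.000256, edgeR). It held 35632, 42022 and 50099 CPM in EU libraries and 38048, 58071 and 61334 CPM in input libraries. Without the pairing it did not pass (adjusted p = 0.0521, edgeR).

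Other abundant miRNAs went either way. MiR-290a-5p was higher (0.30 ± 0.07, but adjusted p = 0.132 in edgeR without course 2), and miR-19b-3p (-0.52 ± 0.08) and miR-291a-5p (-0.91 ± 0.09) were lower. MiR-291a-5p was the only 1 of the 10 most abundant miRNAs whose groups did not overlap, with 9243, 11886 and 17644 CPM in EU libraries and 20263, 22262 and 28699 CPM in input libraries. MiR-292a-3p (-0.03), miR-92a-3p (-0.03) and miR-292a-5p (-0.17) did not pass, and the first and second of these turned positive under TMM or DESeq2 scaling. MiR-292a-5p differed between the courses, with -0.57 in course 1 and 0.20 in course 2 (adjusted p of the difference 4.22e-06, edgeR).

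Within the miR-290-295 cluster, 7 of 14 members were higher (50.0%), 5 lower (35.7%) and 2 did not pass, against 19.9% and 30.6% of all tested. Of its 7 major arms 5 were higher and 1 lower (median 0.19), and of its 7 minor arms 2 were higher and 4 lower (median -0.32). Over all tested, 9.91% of major arms were higher and 41.4% lower, and 33.1% of minor arms were higher and 12.95% lower. MiR-291b-3p was at 13889, 18783 and 21736 CPM in EU libraries and 7843, 10760 and 13006 CPM in input libraries, and its partner miR-291b-5p at 3357, 4017 and 4813 CPM against 7790, 8581 and 10255 CPM. Neither arm's groups overlapped, and they lay in opposite directions (0.80 ± 0.08 and -1.12 ± 0.11). MiR-295-5p, a minor arm, was higher (1.17 ± 0.14), and miR-294-5p, also a minor arm, was lower (-0.32 ± 0.12). Under TMM scaling 7 members were higher and 4 lower.

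In the cluster of miR-302 and miR-367, which is also typical of pluripotent cells, 5 of 9 tested members were higher (55.6%) and 0 lower, with a median of 0.71, against 19.9% higher, 30.6% lower and a median of -0.20 over all tested. The 4 tested 5p arms of miR-302 accounted for 4 of the 5. All 4 are minor arms, and 33.1% of all tested minor arms were higher. The means of these 4 arms in the 7 other input libraries ran from 11.986 CPM (miR-302c-5p) to 107.7 CPM (miR-302a-5p). The lowest share that counted toward the expression filter was 10.6 CPM. MiR-302a-5p (2.24 ± 0.30) had EU shares of 162, 410 and 1140 CPM, all above its input shares of 46.7, 93.9 and 146 CPM. The other higher member was miR-367-3p (0.71 ± 0.16), among 5 major arms with a median of 0.22. The abundant 3p arms miR-302a-3p (0.22), miR-302b-3p and miR-302d-3p did not pass.

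The proliferation-linked miR-17-92 cluster had 4 higher (33.3%) and 3 lower (25%) members of 12, with a median of 0.07, beside 19.9% and 30.6% of all tested. The higher ones were miR-19b-1-5p, miR-92a-1-5p, miR-20a-3p (1.34 ± 0.22) and miR-18a-3p (0.74 ± 0.17). The lower ones were miR-17-5p (-0.33 ± 0.09), miR-18a-5p (-0.45 ± 0.09) and miR-19b-3p. For miR-17-5p the courses differed (adjusted p = 0.00882, edgeR), with -0.03 in course 1 and -0.61 in course 2. Its paralogous clusters had 3 higher (50.0%) and 2 lower (33.3%) of 6 (miR-106b-25) and 4 higher (40.0%) and 2 lower (20%) of 10 (miR-106a-363). MiR-25-3p, a guide strand of the former, was higher without overlap, with 11105 to 15447 CPM in EU libraries and 7155 to 8858 CPM in input libraries (0.72 ± 0.08, adjusted p = 9.55e-09, edgeR). The 6 miRNAs with the miR-17 seed AAAGUGC had a median of -0.43, with 0 higher and 5 lower, miR-20a-5p (-0.04) being the one that did not pass.

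Families that share a seed differed from each other. Seeds were counted only over miRNAs with a single RefSeq mature sequence and a mean of at least 200 CPM over the 12 libraries. For comparison, 9.91% of all 222 tested major arms were higher and 41.4% lower. Of the 142 major arms with at least 200 CPM in the 7 other input libraries, 16 were higher and 71 lower. The seed counts also include arms that are not major, such as miR-16-5p. The 6 miRNAs with the seed AGCAGCA (miR-15/16 and relatives) had 0 higher and 4 lower. Among them, miR-16-5p was at 6139, 8296 and 8820 CPM in EU libraries and at 12461, 17153 and 19547 CPM in input libraries, without overlap (-1.05 ± 0.10, adjusted p = 9.78e-11, edgeR). All 3 miRNAs with the seed AGUGCAA were lower, with miR-130a-3p at 2558, 3815 and 5030 CPM in EU libraries against 7421, 11013 and 13628 CPM in input libraries (-1.49 ± 0.10, adjusted p = 4.47e-14, edgeR). Of other seeds with at least 3 such members, AUUGCAC had 2 higher and 1 lower of 6, CCCUGAG 2 and 1 of 3, and CUCAAAC 1 and 1 of 3. GAGGUAG had 1 and 0 of 3, and AAUACUG and GUAAACA each 0 and 1 of 3. In the miR-30 family 6 of 11 members were higher (54.5%, against 19.9% of all tested and 33.1% of all minor arms), and all 6 were 3p arms. Its 3 lower members were the 5p arms miR-30a-5p, miR-30b-5p and miR-30d-5p. The GUAAACA count above does not include miR-30b-5p and miR-30d-5p.

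The miR-200 family, which restrains mesenchymal genes, had 4 higher members of 9 (44.4%, against 19.9% of all tested and 33.1% of tested minor arms). All 4 were minor arms with medians of at most 66.7 CPM in EU libraries. Among them, miR-200c-5p had 10.2 CPM in the 7 other input libraries, under the 10.6 CPM that counted toward the expression filter. The family had 1 lower member (11.1%, against 30.6%), miR-200c-3p (-0.56 ± 0.17). In the let-7 family, which promotes differentiation and is kept low in these cells, 8 of 21 members were tested and 2 passed, both higher (25%, against the same 19.9%). One of them, let-7a-5p, had 1 to 3 counts in each EU library of course 1 and 112 to 194 in those of course 2, and its ratio differed between courses (-0.56 and 1.97, adjusted p = 5.00e-06, edgeR). MiR-125b-5p followed the same split (-0.52 and 1.57, adjusted p = 2.71e-10). The muscle markers had no count in the EU libraries of course 1 and 562, 115 and 193 counts in those of course 2 at 2, 4 and 8 h, and their part in these 2 results was not tested.

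Members of imprinted and repeat-derived groups moved in both directions. Of 89 tested members of the Dlk1-Dio3 cluster, a maternally expressed array of miRNAs on chromosome 12, 38 were lower (42.7%) and 6 higher (6.74%), with a median of -0.41 (-0.39 with the 3 members that had no EU count set to the bound that 3 counts allow), against 30.6% lower, 19.9% higher and a median of -0.20 for all tested. Of its 49 major arms, 30 were lower and 0 higher, and of its 37 minor arms, 7 were lower and 6 higher. For all tested miRNAs, 92 of 222 major arms were lower and 22 higher, and 18 of 139 minor arms were lower and 46 higher. MiR-127-3p had 2147, 3576 and 3779 CPM in EU libraries and 4480, 5101 and 6492 CPM in input libraries (-0.70 ± 0.12, adjusted p = 5.66e-06, edgeR). MiR-410-3p lay further down, at -1.67 ± 0.16, while miR-541-5p (-0.12 ± 0.12) did not pass. Of 39 tested miRNAs of the miR-297, miR-466, miR-467 and miR-669 type, 11 were lower (28.2%) and 3 higher (7.69%), with a median of -0.41.

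Some guide strands were higher in EU libraries than in the standing pool. MiR-96-5p, of the cluster of miR-182, miR-183 and miR-96, held 17410, 22082 and 26870 CPM in EU libraries and 11694, 13310 and 15603 CPM in input libraries (0.72 ± 0.08, adjusted p = 2.71e-09, edgeR). Its groups did not overlap, while its cluster neighbours were lower (miR-183-5p, -0.39 ± 0.09) or did not pass (miR-182-5p, -0.10 ± 0.08). MiR-7a-5p, a miRNA enriched in neural and endocrine cells, held 6458 to 10621 CPM against 3320 to 5735 CPM (0.83 ± 0.11, adjusted p = 5.80e-08, edgeR). MiR-142a-3p.1, typical of blood cells, held 10647 to 15537 CPM against 4422 to 6917 CPM (1.19 ± 0.09, adjusted p = 4.20e-13, edgeR), while the other arm, miR-142a-5p, was among the 10 lowest.

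The arms of a hairpin come from the same precursor, so their difference compares strands at equal transcription. The minor arm was taken as the arm with the lower mean in the 7 other input libraries, and 54 hairpins with both arms named and a minor arm of at least 100 CPM there were tested with limma on 6 paired differences. Of these, 31 (57.4%) passed, 25 (46.3%) with the minor arm higher in EU relative to the major arm and 6 (11.1%) with it lower. The largest difference was that of miR-130a, where the 5p arm at 221 CPM exceeded the 3p arm at 10320 CPM by 3.92 ± 0.28 on the log2 scale of EU over input (adjusted p = 2.31e-06, limma). MiR-130b followed with 2.72 ± 0.18 (adjusted p = 2.08e-06), miR-466h with 2.49 ± 0.43, miR-302a with 2.29 ± 0.48 and miR-296 with 2.17 ± 0.31.

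In miR-130b, miR-466h and miR-296 the difference came from the major arm, which was lower (-2.32, -3.23 and -1.78), while the minor arm did not pass the test of single miRNAs (0.43, -0.19 and 0.15). In miR-130a and miR-302a the minor arm itself was higher. Among the 8 hairpins with the most abundant minor arm, the minor arm was relatively higher in miR-295 (1.03 ± 0.21, adjusted p = 0.00187) and miR-17 (0.56 ± 0.21, adjusted p = 0.0376). It was lower in miR-291b (-1.93 ± 0.16, adjusted p = 5.82e-06), miR-291a (-1.10 ± 0.19, adjusted p = 0.000808) and miR-294 (-0.63 ± 0.19, adjusted p = 0.0177). The arms of miR-292a (-0.16 ± 0.23), miR-293 (-0.09 ± 0.19) and miR-411 (0.02 ± 0.21) did not pass. With a course left out, fitted on 3 pairs, some of these calls were lost: miR-17 without either course (adjusted p = 0.110 and 0.308, limma), miR-294 likewise (0.164 and 0.0805) and miR-291a without course 2 (0.0533).

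The 5 hairpins with the lowest relative minor arm were miR-335 (-2.16 ± 0.20, adjusted p = 1.29e-05), miR-291b, miR-136 (-1.42 ± 0.40), miR-872 (-1.11 ± 0.36) and miR-291a. MiR-136 did not pass without course 2 (adjusted p = 0.209, limma) and miR-872 not without course 1 (-0.37, adjusted p = 0.378). In miR-335 the arms stood at nearly equal levels in the other input libraries, 496 CPM for 5p and 554 CPM for 3p. MiR-335-5p was at 97.4 to 257 CPM in EU libraries and 244 to 771 CPM in input libraries, while miR-335-3p was at 640 to 1531 CPM against 460 to 804 CPM. The groups of either arm overlapped, but the 5p arm was below and the 3p arm above its input on average.

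The difference was larger where the arms were less equal. In the 19 hairpins with a major arm more than 16 times as abundant as the minor arm, the median difference was 1.30, with 14 passing for a higher and 1 for a lower minor arm. In the 13 hairpins with a ratio of 4 to 16 the median was 0.29 (4 and 2), and in the 22 with a ratio under 4 it was 0.03 (7 and 3). Across the 54 hairpins the correlation of the difference with the log2 level ratio was r = 0.44 (rho = 0.44), a description only, since all points share the same 12 libraries. Over all 448 tested miRNAs, without regard to pairs of arms, 22 of 222 major arms were higher and 92 lower (median -0.39), and 46 of 139 minor arms were higher and 18 lower (median 0.33). At least 200 CPM in the 7 other input libraries left 142 major arms with 16 higher and 71 lower, and 32 minor arms with 10 higher and 10 lower (medians -0.38 and -0.19).

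**Figure D3:**
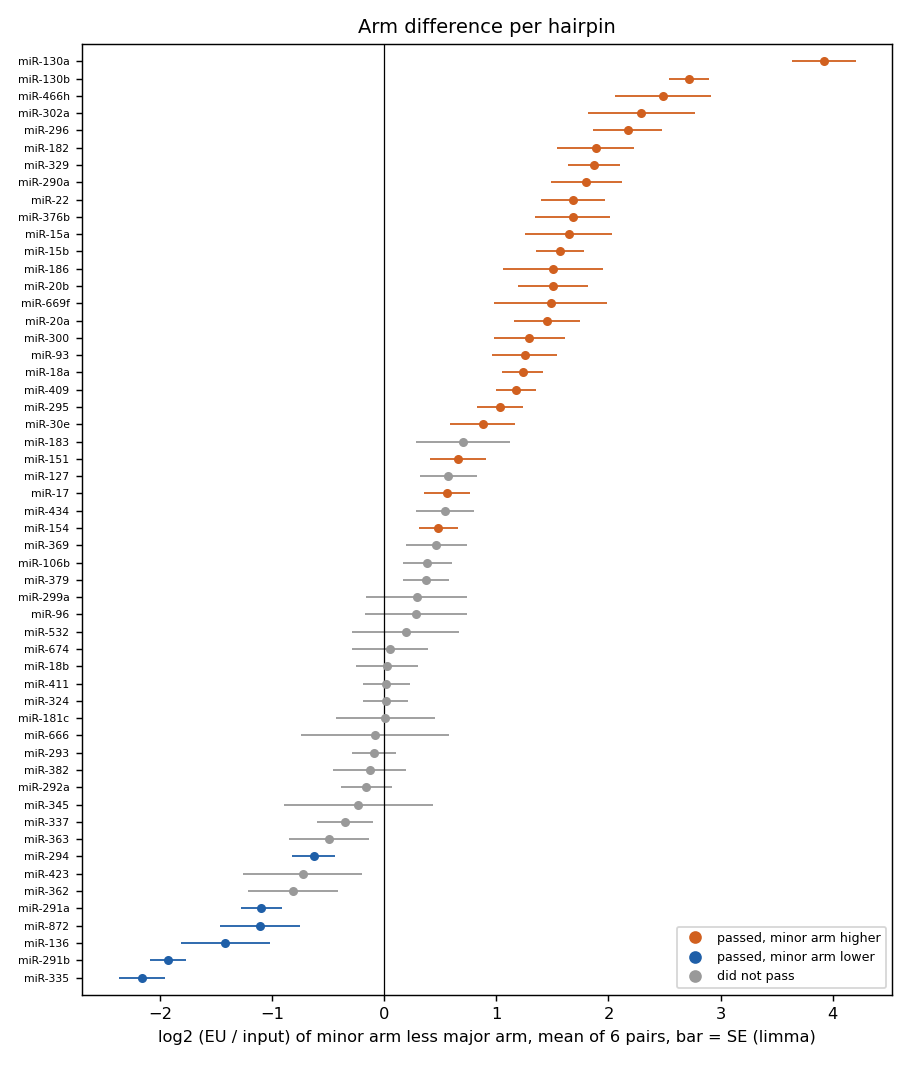
Log2 EU over input of the minor arm less that of the major arm for 54 hairpins (horizontal axis, mean of 6 pairs, bars are the SE from limma). Orange and blue points passed for a higher or lower minor arm and grey points did not, from miR-130a at 3.92 to miR-335 at -2.16.

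The gap between arms narrowed with labelling time in both courses. The median difference over the 54 hairpins was 1.12, 0.74 and 0.20 at 2, 4 and 8 h in course 1 and 0.95, 0.71 and 0.26 in course 2. Outside the comparison it was 1.50 and 1.49 at 1 h, 0.10 and 0.29 at 16 h and 0.05 and 0.07 at 24 h. The number of hairpins with the minor arm above the major arm was 39 and 42 at 1 h and 29 in both courses at 24 h. EU depth grew over the same times, and with every EU library of the comparison thinned to 11392 counts the medians were 1.12, 0.87 and 0.21 in course 1 and 1.17, 0.61 and 0.56 in course 2.

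**Figure D4:**
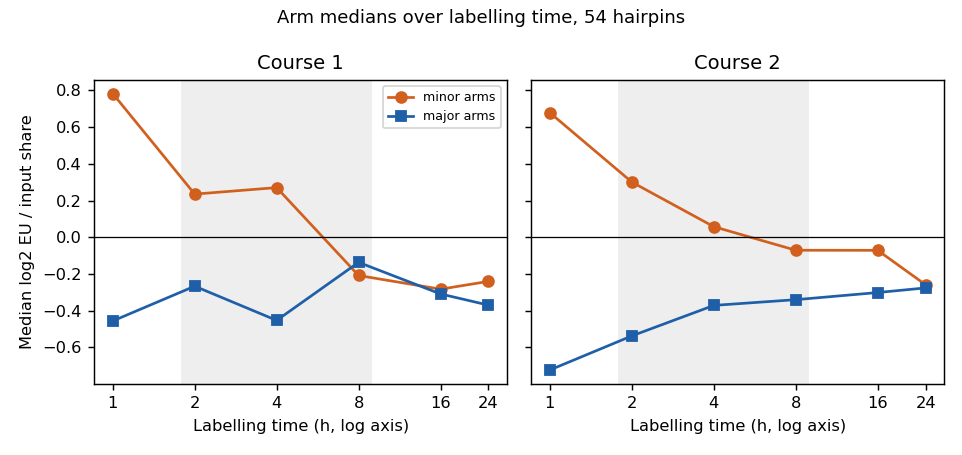
Median log2 of EU share over input share of the minor and major arms of 54 hairpins (vertical axis) against labelling time in hours (log axis), with 1 panel per course; the shaded times are those of the comparison. In course 1 the minor arms went from 0.78 at 1 h to -0.24 at 24 h, and the major arms from -0.46 to -0.37.

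Labelling time was tested for single miRNAs as the change of the log2 ratio per doubling of time. Of 448 miRNAs, 22 (4.91%) passed, of which 21 (4.69%) fell and 1 (0.223%) rose. The steepest falls among miRNAs with a mean of at least 200 CPM were those of miR-186-3p (-1.16 per doubling, adjusted p = 0.00110, edgeR), miR-96-3p (-1.10, adjusted p = 0.00616), miR-290a-3p (-0.97, adjusted p = 4.19e-05), miR-301a-5p (-0.95, adjusted p = 0.0280) and miR-9-5p (-0.94, adjusted p = 0.00616). Of the 6 miRNAs named for a slope (5 falling, 1 rising), 4 had under 200 CPM in the 7 other input libraries: miR-186-3p (101 CPM), miR-96-3p (127 CPM), miR-301a-5p (56.6 CPM) and miR-9-5p (104 CPM). They reached the minimum through EU shares that were highest at 2 h in both courses, so this choice favours falling slopes. Among the 216 miRNAs with at least 200 CPM in those libraries, 11 fell, 1 rose and the median slope was 0.08. MiR-290a-3p had log2 ratios of 3.26, 2.12 and 1.60 at 2, 4 and 8 h in course 1 and 2.96, 1.89 and 0.79 in course 2. At times outside the fit it stood at 4.50 and 4.24 at 1 h and at 0.72 and 0.03 at 24 h.

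The 22 miRNAs were largely those already high in EU libraries. Both passengers of the miR-17-92 transcript named above fell, miR-19b-1-5p by 0.93 and miR-92a-1-5p by 0.73 per doubling, as did miR-295-5p (by 0.62) and miR-130a-5p (by 0.58). MiR-34a-5p, a p53-induced miRNA that slows the cell cycle, was the one that rose (0.43, adjusted p = 0.0358, edgeR). Its ratio was 0.57, 1.05 and 1.03 at 2, 4 and 8 h in course 1 and 0.01, 0.91 and 1.20 in course 2, with -0.21 and -0.87 at 1 h and 0.78 and 0.77 at 24 h. Its share also increased in the input libraries, from 2114 CPM at 1 h to 4640 CPM at 24 h in course 1 and from 2574 to 6258 CPM in course 2.

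The fall of miR-9-5p, a neural miRNA, was unlike the others. It had 3 counts in each EU library of course 1, and 45, 14 and 57 counts at 2, 4 and 8 h in course 2, where the muscle markers were also present. Let-7a-5p (-0.89 per doubling) and miR-125b-5p (-0.67) fell as well and had the same split between courses. The part of that signal in these 3 slopes was not tested. Without course 2, 0 slopes passed (14 at an unadjusted p under 0.05, edgeR), and without course 1, 14 passed.

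Uridine content moved with the EU-to-input ratio, and each uridine is a place where 5EU can enter. How far label uptake or capture, rather than recent synthesis, set these ratios was not tested. The set is that of the major and minor arms with at least 200 CPM in the 7 other input libraries, of which 153 of 174 had a single RefSeq mature sequence. Among major arms, the median log2 difference was -1.47 with 2 to 3 uridines (8 miRNAs, 0 higher and 6 lower) and -0.86 with 4 to 5 (28 miRNAs, 0 and 24). It was -0.38 with 6 to 7 (54 miRNAs, 2 and 29) and 0.18 with 8 to 11 (32 miRNAs, 12 and 2). Among minor arms it was -0.32 with 4 to 5 uridines (13 miRNAs, 3 and 6), -0.03 with 6 to 7 (10 miRNAs, 3 and 1) and 0.43 with 8 to 10 (8 miRNAs, 4 and 2). The correlation was r = 0.72 (rho = 0.72) among major arms (85.9% matched) and r = 0.39 (rho = 0.38) among minor arms (96.9% matched), as a description, since miRNAs share libraries and families.

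The sequences printed above show the range. MiR-494-3p and miR-466i-3p have 3 uridines and miR-667-3p has 2, whereas miR-495-5p, miR-130a-5p, miR-294-3p and miR-291b-3p have 10. MiR-25-5p, with 4 uridines and a difference of 2.39, went against this order. For the major arms r was 0.37 and 0.43 at 1 h and 0.74 and 0.77 at 24 h in courses 1 and 2, while EU depth grew from 7922 and 13137 counts to 102412 and 131117. The part of depth in that increase was not tested.

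**Figure D5:**
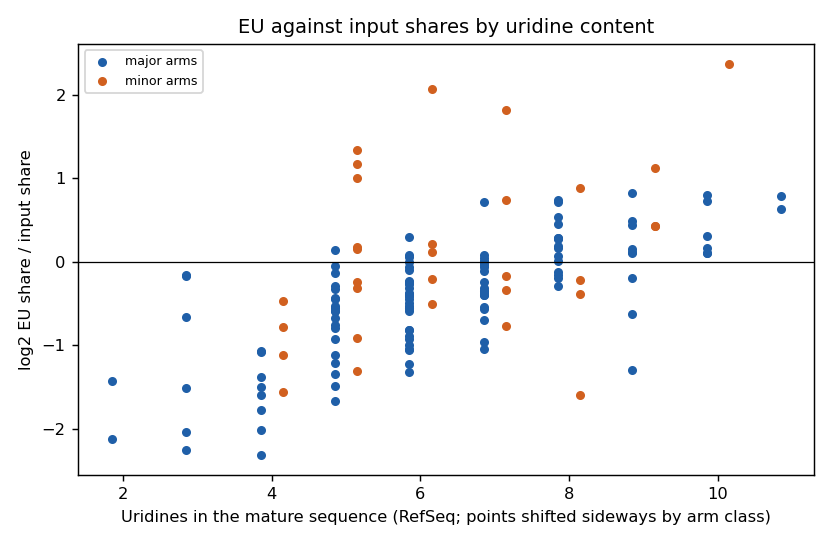
Log2 of EU share over input share (vertical axis) against the number of uridines in the RefSeq mature sequence (horizontal axis, points shifted sideways by arm class) for 153 miRNAs with at least 200 CPM in the 7 other input libraries. Medians of the major arms (blue) go from -1.47 at 2 to 3 uridines to 0.18 at 8 to 11, and minor arms (orange) with 8 or more have a median of 0.43.

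The arm difference moved with uridines too. In 47 hairpins with both sequences, the minor arm had more uridines than the major arm in 17, with a median difference of 1.50 and 13 passing for a higher and 0 for a lower minor arm. It had fewer in 24, with a median of 0.02 and 4 higher against 6 lower. In the 6 hairpins with equal numbers, among them miR-290a with 6 and miR-186 with 8 uridines on each arm, the median was 0.87, with 4 higher and 0 lower. The uridine difference and the arm difference had r = 0.69 across the 47 hairpins. MiR-295 (fewer by 4 uridines on the minor arm, difference 1.03) and miR-20a (fewer by 2, difference 1.45) went the other way.

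The courses gave similar ratios. Across 225 miRNAs with a mean of at least 200 CPM the course means correlated with r = 0.88, and single pairs with r of 0.67 to 0.88, as a description. This set was chosen on the same 12 libraries. In it, 13 miRNAs had under 200 CPM in the 7 other input libraries and entered through their EU shares, and all 13 were higher. How far they raised r was not tested. Fitted alone, course 1 called 113 miRNAs and course 2, which was sequenced deeper, 190. Of these, 96 were called in both, 95 with the same sign. The ratio itself differed between the courses for 9 miRNAs (2.01%), which were let-7a-5p, miR-125b-5p, miR-124-3p.1, miR-16-5p, miR-17-5p, miR-292a-5p, miR-293-5p, miR-296-5p and miR-30c-5p.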

How the data were processed

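Raw read counts per mature miRNA were used as the authors deposited them, without normalization. The submitters' processing notes list cutadapt for both courses, and for course 1 also STAR 2.4, HTSeq 0.9.1 and the build mm10/GRCm38. For course 2 the aligner, counter and build are not given in the sources used here. Per the labels' protocols, adapters carried random bases, but no duplicate removal is recorded, so counts are reads.

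In R 4.3.3, shares were taken of the total over 1013 mouse miRNAs, without further scaling. EU and input counts were compared with edgeR 4.0.16 (expression filter by library kind, quasi-likelihood test, pair of course and time as a block), labelling time as the interaction with log2(hours), and arms with limma 3.58.1 on paired log2 differences (pseudocount 0.5 count). Tests were two-sided, with Benjamini-Hochberg adjustment over all features of a comparison and a threshold of 0.05. Named miRNAs are the 10 largest and 10 smallest differences that passed, with the same sign in 6 pairs and a mean of at least 200 CPM, the 10 most abundant, up to 4 members per list, and for arms the 8 with the most abundant minor arm and the 5 largest differences each way. A few further members of a family were named after their values were seen. The members and lists were chosen with earlier results of these data known.

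The pairing comes from the labels (same course and time). Across 225 miRNAs, the EU and input libraries' deviations from the group means correlated at 0.21 to 0.47 in the 6 pairs. In 5 of 6 the paired input was also the best match, the exception being the 2 h pair of course 2. On simulated counts, edgeR recovered 75.5% of changes of 1 log2 unit and 94.8% of changes of 2 in the EU against input comparison of 456 miRNAs, with 2.41% false calls. For the slopes on 468 miRNAs, it recovered 4.12% at 0.5 and 27.8% at 1 per doubling. Alternatives included TMM scaling, DESeq2 1.42.0, other filters, no block, omitted courses or times and subtraction of the 0 h library.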

Additional observations from a re-analysis of the deposited data

Results flagged for a closer look

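Each of 40 groups of 6 values was examined for a value standing apart, and chance alone marks about 1 in 20 such groups. Among the named miRNAs, the 2 h pair of course 1 stood apart for miR-140-3p.2, at a log2 ratio of -3.32 from 0 EU counts, and the 2 h pair of course 2 for miR-290a-5p, at 0.53. Among summed markers of other cell types, the fibroblast or mesenchymal sum was low in the 2 h EU library of course 2 (805 CPM) and high in the 8 h input library of course 1 (1283 CPM). The muscle sum was high in the 2 h EU library of course 2 (18852 CPM) and in the 8 h input library of course 2 (859 CPM). The endothelial or liver sum was low in the 2 h EU library of course 1 (263 CPM).

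For 6 named miRNAs the EU-to-input ratio differed between labelling times, by the interaction test in edgeR. The slope per doubling of time was 0.43 for miR-34a-5p, -1.16 for miR-186-3p, -1.10 for miR-96-3p, -0.97 for miR-290a-3p, -0.95 for miR-301a-5p and -0.94 for miR-9-5p.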

How the results depend on the processing

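The 226 calls of the EU against input comparison became 220 with TMM scaling and 203 with DESeq2, and 207 and 189 of the calls were shared with the same sign. With course 1 left out there were 190 and with course 2 left out 113. Other settings gave 164 to 225, the lowest without the 2 and 8 h pairs of course 2. Among the named miRNAs of this comparison, 420 values under alternatives kept direction and side of the threshold, 14 lost and 2 gained the threshold, and 10 changed sign, all 10 in miRNAs that had not passed. Of the 14 losses, 11 were of miR-291a-3p and miR-295-3p, and the others were miR-293-3p without the block and miR-294-3p and miR-290a-5p without course 2. MiR-292a-3p became 0.052 with TMM scaling, 0.107 with DESeq2, 0.014 without the 4 h pairs and 0.023 without the 2 and 8 h pairs of course 2, and ran from -0.12 to 0.066 with a course left out. MiR-92a-3p became 0.050 with TMM scaling, 0.108 with DESeq2, 0.041 with counts summed per course and 0.024 without the 2 h pairs. MiR-292a-5p ran from -0.56 to 0.20 with a course left out. The cause of these changes was not tested.

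The 31 arm calls became 74 of 119 hairpins with a minimum of 20 CPM and 7 of 15 hairpins with a stricter minimum, where fewer were tested. They became 25 without course 1 and 16 without course 2, while subtraction of the 0 h library left 31 and thinning 26. Arms that had not passed changed sign. With a course left out, miR-292a ran from -0.64 to 0.32, miR-293 from -0.43 to 0.24 and miR-411 from -0.026 to 0.063, and miR-411 became -0.135 after subtraction of the 0 h library and -0.209 after thinning.

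The 22 time calls became 14 with DESeq2, 14 without course 1 and 0 without course 2, where 14 had an unadjusted p under 0.05 (59 in both courses together). With the EU and input libraries not paired by a replicate block, 1 slope passed, against 209 calls for EU against input without the block. The slopes themselves kept their sign under every alternative run, from -1.36 to -1.12 for miR-186-3p, from -1.09 to -0.83 for miR-290a-3p and from 0.21 to 0.58 for miR-34a-5p.

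EU depth limits all of this: 86 of the 226 calls rest on fewer than 10 EU counts per library on average, and 5 on none at all. In simulations most slopes of 1 per doubling were missed.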
